A study of Mus musculus with 48 samples.

Results

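Microglia of both control groups of a mouse study were set against each other: 5 libraries from mice injected with saline and 8 from mice that drank water, 13 of the 48 samples listed. All mice were of the inbred strain C57BL/6, and the tissue was the medial prefrontal cortex. Saline mice received an intraperitoneal injection of saline and were killed 1 week later, as the controls of mice injected with 1.5 mg/kg lipopolysaccharide (LPS), a bacterial ligand of Toll-like receptor 4. Water mice had water to drink for 60 days, as the controls of mice with a choice of 15% ethanol on alternate days over those 60 days. The 5 LPS and 10 ethanol libraries of microglia were used as a second pair of groups from the same cohorts. Age and housing are not given in the labels, and no genotype or transgene other than the strain is named for any group. In all 4 groups the tissue was minced and dissociated, myelin was removed on Percoll, and cells were captured with magnetic beads against CD11b, a surface integrin that microglia share with border macrophages, monocytes and neutrophils. Neither control group received LPS or ethanol. The injection, the cohort and anything else that separated the cohorts fall on the same 5 and 8 libraries and cannot be told apart.

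Microglia are the resident macrophages of the brain. In the resting state they express a stable set of surface receptors, and a disturbance switches on early response genes, targets of the transcription factor NF-kB, cytokines and stress genes. Dual-specificity phosphatases (Dusp genes) are part of the early response: they remove phosphates from MAP kinases and so limit the signal that induced them. Clock genes are expressed in most cells and vary with the time of day. A comparison of control groups gives the level from which each treatment of a study is read.

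Values are read counts per gene, and CPM are counts scaled to the total that each library had in genes. That total lay between 20.8 and 39.9 M (mega) in saline libraries and between 9.72 and 39.5 M in water libraries, the lowest being water mouse 24. Several libraries stood apart. The library of water mouse 24 had 56.1% of its uniquely aligned reads outside genes, against at most 36.9% in the other 12, and water mouse 19 had a summed level of neutrophil markers of 19398.5 CPM, against 783 to 1245 CPM in saline and 759 to 1148 CPM in the other water libraries. Saline mice 38 and 48 lay apart from the other 11 libraries on the first principal components. After all libraries were thinned to one depth, they had the fewest genes with at least 5 counts, 10538 and 11077. This number averaged 11899 ± 1033 in saline (SD, n = 5) and 12757 ± 296 in water (SD, n = 8), a difference of -858 genes with an exact permutation p of 0.0365 (two-sided) and an adjusted p of 0.219 over the 6 library measures tested. By medians the difference was -370.5 genes (exact permutation p = 0.228, not adjusted). For the means of the other 5 measures (total counts, reads outside genes, reads not uniquely aligned, even counts, share of the top 20 genes) adjusted p was between 0.860 and 0.991, with water mouse 24 far from its group in 3 of them. The share of reads outside genes had a median of 32.999% in saline and 23.7% in water (exact permutation p = 0.108, not adjusted), and 4 of 5 saline libraries, at 31.3 to 36.9%, lay above all water libraries other than mouse 24, at 19.9 to 27.1%. Reads not uniquely aligned had medians of 14.1% in saline and 10.1% in water (exact permutation p = 0.0559, not adjusted). Across all tested genes saline libraries differed more from each other (root mean square log2 distance 1.78) than they did from water libraries (1.53), and water libraries differed by 1.18.

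**Figure D1:**
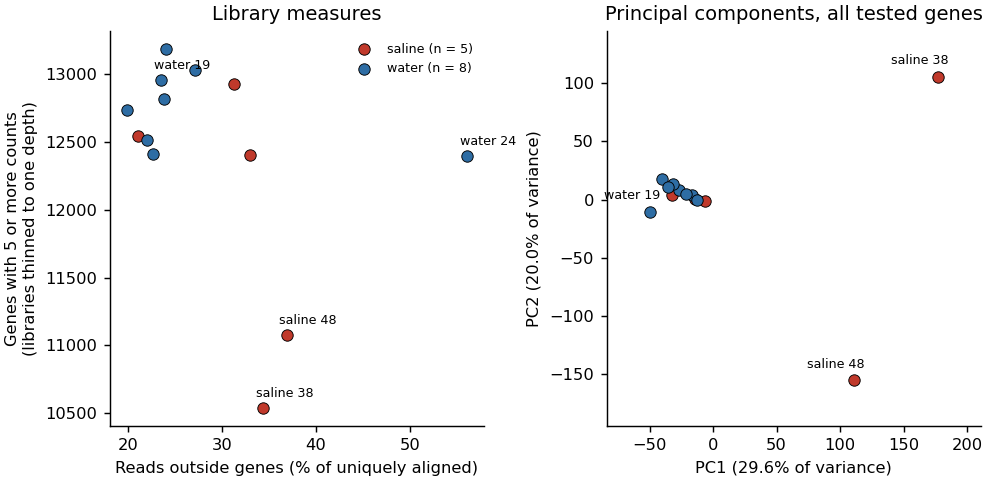
Library measures of the 5 saline and 8 water libraries. Left, the percentage of uniquely aligned reads outside genes (x) against the number of genes with at least 5 counts after thinning (y). Right, the first principal components of log2 CPM. Saline mice 38 and 48 have the lowest gene numbers and lie apart on the right, and water mouse 24 lies at 56.1% outside genes.

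The cells carried the defining genes of microglia in both groups. Csf1r, the receptor for colony-stimulating factor, lay between 9125 and 10476 CPM in saline libraries (median 10208) and between 8088 and 11161 CPM in water libraries (median 10365). It averaged 167 ± 14.6 CPM in homogenates of whole prefrontal tissue from ethanol mice (SD, n = 10). The neuronal gene Snap25 was at 5.97 to 14.1 CPM in saline and 6.79 to 31.2 CPM in water microglia, against 1924 ± 263 CPM in these homogenates (SD, n = 10). The astrocyte filament Gfap reached at most 3.86 CPM in saline and 3.62 CPM in water microglia, against 117 CPM in homogenate.

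Saline and water microglia differed in 110 of 13218 genes tested, 0.832% of them, by the quasi-likelihood test of edgeR with a Benjamini-Hochberg adjusted p under 0.05. The difference ran mostly one way: 105 genes (0.794%) were higher in saline and 5 (0.0378%) were lower. The split was 251 higher and 75 lower with DESeq2, 154 and 27 with all 4 groups in the fit, and 223 and 44 without saline mice 38 and 48 and water mice 19 and 24. The median log2 fold change of the 105 was 0.62, with a range of 0.31 to 1.77, and 12 genes in all passed 2-fold. The median over all tested genes was -0.03. Every saline library lay above every water library for 55 of the 105, and none of the 5 lower genes had groups that did not overlap. Over all genes tested, such a split with saline above was found for 90 genes (0.681%) and with saline below for 46 (0.348%). At an unadjusted p under 0.05 there were 1532 genes, 11.6% of those tested. DESeq2 called 326 genes and limma voom 169, and all 110 kept their sign in both.

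No gene was called once sets of libraries inferred from numbers in the library names were a term in the fit. The number of calls also depended on single libraries and on a library measure. It was 56, all higher, with the share of reads outside genes as a covariate. It was 229 without saline mouse 38 and 31 without saline mouse 48, 60, 48 and 52 without saline mice 45, 46 and 49, and between 64 and 134 when a water library was left out, with 64 without water mouse 25 and 69 without water mouse 24. Without saline mice 38 and 48 together it was 121, without water mice 19 and 24 it was 76, of which 63 were among the 110, and without these 4 libraries it was 267. All 110 genes kept their sign in each of these fits, and 23 were called in all 13 fits without 1 library. In the descriptions of single genes that follow, saline values are given for mice 38, 45, 46, 48 and 49 in this order, and water values as the lowest, the median and the highest of 8 libraries.

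Dusp2, a nuclear phosphatase that inactivates MAP kinases, had 163, 201, 207, 130 and 193 CPM in saline microglia, against 62.4, 88.9 and 117 CPM (lowest, median, highest) in water microglia. The lowest saline library, mouse 48, lay above the highest water library. It rose by a log2 fold change of 1.07 (SE 0.15, edgeR adjusted p = 0.00650). Ints6, a subunit of the Integrator complex that processes small nuclear RNAs and ends stalled transcription, had 44.1, 79.0, 56.1, 63.7 and 77.2 CPM in saline, against 21.3, 27.3 and 37.2 CPM in water. Groups did not overlap, and saline mouse 38 was the lowest of its group. Its log2 fold change was 1.19 (SE 0.16, edgeR adjusted p = 0.00650). Nt5dc3, named for a 5′-nucleotidase domain, had 40.6, 49.6, 54.3, 57.8 and 41.2 CPM in saline, against 20.4, 21.8 and 29.6 CPM in water. These groups did not overlap either, and the gene had the smallest p of all, with a log2 fold change of 1.10 (SE 0.14, edgeR adjusted p = 0.00522). In the GRCm38 annotation Dusp2 lies on chromosome 2 at 127336159 to 127338376 (plus strand), Ints6 on chromosome 14 at 62676330 to 62761169 (minus strand) and Nt5dc3 on chromosome 10 at 86779005 to 86838389 (plus strand), and all of them code for proteins.

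Enzymes and stress regulators followed. Chka, the choline kinase that starts the synthesis of phosphatidylcholine, had 97.6, 124, 111, 129 and 117 CPM in saline, against 40.6, 70.2 and 84.4 CPM in water. All saline libraries exceeded all water libraries, and the lowest was water mouse 24. Its log2 fold change was 0.83 (SE 0.12, edgeR adjusted p = 0.00797). Sesn2, a sestrin that is induced by stress and restrains the growth kinase mTORC1, had 63.8, 68.8, 39.8, 47.6 and 45.3 CPM in saline, against 26.2, 27.3 and 33.7 CPM in water. Groups did not overlap, and saline mice 38 and 45 were highest. Its log2 fold change was 0.95 (SE 0.14, edgeR adjusted p = 0.00982). Marcksl1, an actin-binding relative of the protein kinase C substrate MARCKS, had 528, 506, 550, 562 and 583 CPM in saline, against 261, 353 and 444 CPM in water. It was among the more abundant genes that rose, and its groups did not overlap (log2 fold change 0.65, SE 0.10, edgeR adjusted p = 0.00982).

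The widest rise was that of N4bp3, named for binding the ubiquitin ligase NEDD4. It had 19.8, 10.3, 15.98, 16.1 and 8.73 CPM in saline, against 2.92, 3.86 and 6.91 CPM in water, a log2 fold change of 1.77 (SE 0.30, edgeR adjusted p = 0.0133). Groups did not overlap at this low level. Utp14b followed at 1.34 (SE 0.30, edgeR adjusted p = 0.0482). It is a retrocopy of Utp14a, so the counting could have split reads between them and its value is uncertain. The zinc importer Slc39a4 had 43.5, 15.3, 28.4, 22.5 and 18.96 CPM in saline, against 5.97, 11.03 and 14.2 CPM in water (log2 fold change 1.28, SE 0.25, edgeR adjusted p = 0.0216). Its highest library was saline mouse 38. Cry1, described with the clock genes, was at 1.25. Other large rises were those of Zfp593 at 1.15, Wbp5 at 1.12, the cell-surface proteoglycan Sdc4 at 1.04, the beta-tubulin Tubb6 at 1.04 and the secreted metalloprotease Adamts16 at 1.02, with edgeR adjusted p between 0.0109 and 0.0305. For Utp14b, Sdc4 and Tubb6 saline and water libraries overlapped. For Tubb6, saline mouse 38 had 18.7 CPM and the other saline libraries 49.8 to 65.7 CPM, against at most 31.3 CPM in water.

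The genes that fell were few. Dusp6, a cytoplasmic phosphatase specific for the MAP kinase ERK, had 403, 287, 277, 312 and 464 CPM in saline, against 452, 562 and 708 CPM in water. Only saline mouse 49 reached into the water range, and the log2 fold change was -0.67 (SE 0.14, edgeR adjusted p = 0.0333). Slc39a10, another zinc importer, had 23.6, 42.5, 48.99, 54.6 and 39.6 CPM in saline, against 52.7, 80.8 and 91.3 CPM in water. Its groups overlapped in saline mouse 48, and the log2 fold change was -0.80 (SE 0.17, edgeR adjusted p = 0.0386). Mettl7a1 was at -0.65 (edgeR adjusted p = 0.0499), and near-identical copies of this gene make its count uncertain. AI467606 has no described role here and was at -0.99 (edgeR adjusted p = 0.0427). Each of the 5 lost its call in at least 8 of the 13 fits without 1 library, and Mettl7a1 kept its call in 2.

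**Figure D2:**
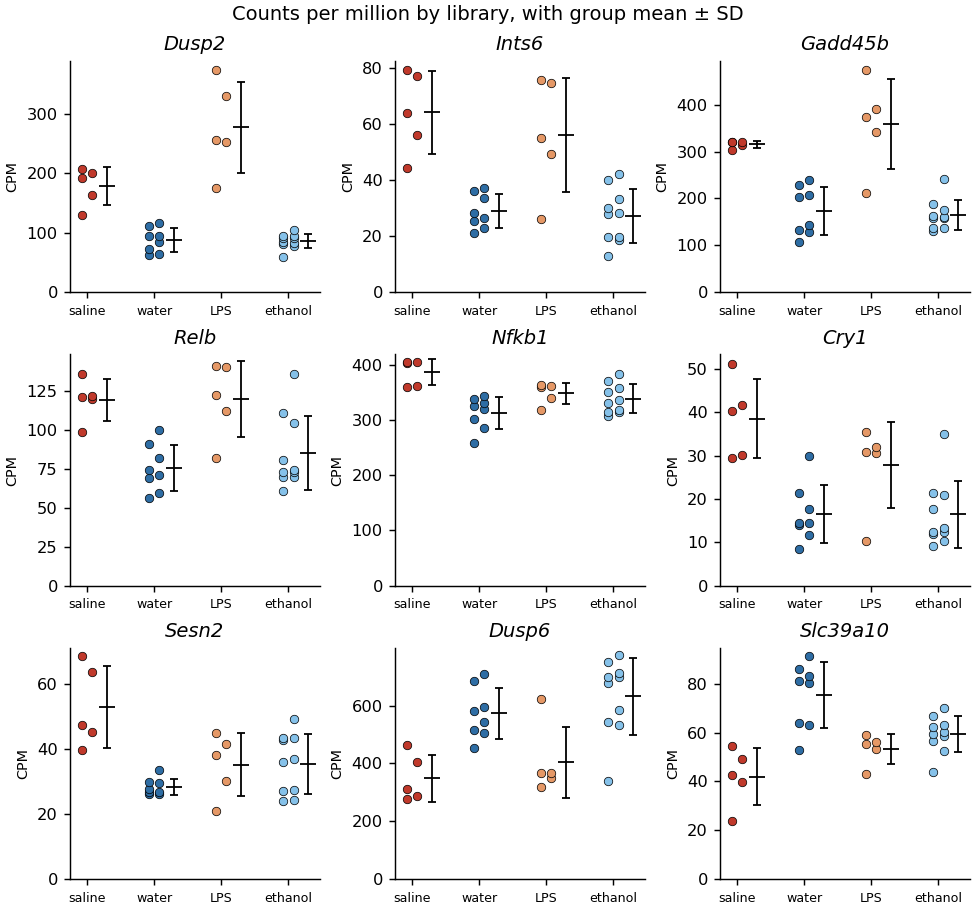
CPM of 9 genes in each microglial library (points), with the mean and SD of each group (bars), in saline (n = 5), water (n = 8), LPS (n = 5) and ethanol (n = 10) mice. Dusp2, Ints6, Gadd45b, Nfkb1 and Sesn2 are higher in every saline library than in any water library, and Dusp6 and Slc39a10 are lower in most.

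NF-kB factors are dimers held in the cytoplasm by inhibitor proteins until a receptor signal frees them. Of 28 tested members of a list of NF-kB regulators and cytokines 4 rose (beside 0.794% of all genes tested) and none fell, and 22 were positive, with a median log2 fold change of 0.37 beside -0.03 over all genes. Relb, a subunit of the slower, non-canonical branch, had 98.3, 120, 135, 122 and 121 CPM in saline, against 56.3, 72.7 and 99.7 CPM in water. Only saline mouse 38 reached into the water range, and the log2 fold change was 0.70 (SE 0.13, edgeR adjusted p = 0.0172). Nfkb1, the precursor of the p50 subunit, had 404, 360, 406, 405 and 362 CPM in saline, against 258, 323 and 344 CPM in water, with no overlap and a log2 fold change of 0.35 (SE 0.07, edgeR adjusted p = 0.0298). Birc3, an inhibitor of apoptosis that NF-kB induces, had 158, 180, 177, 174 and 172 CPM in saline, against 89.5, 130 and 155 CPM in water. It did not overlap either (log2 fold change 0.50, SE 0.10, edgeR adjusted p = 0.0328). The fourth was the leukocyte adhesion receptor Icam1, named here after its values were seen, at 0.64 (SE 0.13, edgeR adjusted p = 0.0330). Tnf, the cytokine, was at 0.43 (SE 0.11, edgeR adjusted p = 0.0719), Rela at 0.38 (adjusted p = 0.088) and the inhibitor Nfkbia at 0.39 (adjusted p = 0.092), and did not pass. Il1b was at 0.24 (SE 0.28, edgeR adjusted p = 0.788), with saline mouse 38 at 66.0 CPM and water mouse 19 at 229 CPM, far from their groups. Without water mice 19 and 24, 1 of the 27 members tested passed, beside 76 of all 12958 genes tested in that fit, and the list median was 0.36. The fit with the set term called no gene at all, and the list median there was 0.20.

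Among 29 immediate early genes 3 rose, namely Dusp2, Dusp5 and Maff (beside 0.794% of all genes tested), and none fell, with a median of 0.18. Without water mice 19 and 24 also 3 passed, beside 76 of all 12958 genes tested in that fit. The fit with the set term called no gene at all, and the list median there was 0.16. Dusp5, a nuclear phosphatase for ERK, was at 39.8, 57.6, 55.9, 40.9 and 43.2 CPM in saline, against 19.8, 27.6 and 40.6 CPM in water (log2 fold change 0.83, SE 0.16, edgeR adjusted p = 0.0201). Saline mouse 38 lay just under the highest water library, mouse 19. Maff, a small basic leucine zipper factor, was at 126, 198, 171, 194 and 174 CPM in saline, against 76.1, 99.0 and 143 CPM in water (log2 fold change 0.75, SE 0.15, edgeR adjusted p = 0.0268), with saline mouse 38 within the water range. The best-known members did not pass: Fos was at 0.005 (SE 0.16, edgeR adjusted p = 0.995) and Egr1 at 0.18 (SE 0.11, edgeR adjusted p = 0.567) in overlapping groups. Dusp phosphatases moved in both directions, with Dusp2 and Dusp5 higher in saline and Dusp6, which was not on the immediate early list, lower. Dusp3, named after its values were seen, was also higher at 0.42 (SE 0.08, edgeR adjusted p = 0.0234).

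Of 20 circadian clock genes 2 rose, beside 0.794% of all genes tested, and none fell (median 0.23). Without water mice 19 and 24, 1 passed, beside 76 of all 12958 genes tested in that fit. The fit with the set term called no gene at all, and the list median there was 0.31. Cry1, a repressor of the CLOCK and BMAL1 activators, had 29.4, 41.8, 51.3, 40.2 and 30.3 CPM in saline, against 8.39, 14.5 and 30.0 CPM in water. The groups overlapped in saline mouse 38 and 1 water library, and the log2 fold change was 1.25 (SE 0.26, edgeR adjusted p = 0.0330). Nr1d2, the nuclear receptor REV-ERB beta, had 124, 160, 112, 125 and 136 CPM in saline, against 74.0, 97.5 and 113 CPM in water (log2 fold change 0.50, SE 0.10, edgeR adjusted p = 0.0244), with saline mouse 46 just under the highest water library. The clock output gene Dbp was at 0.56 (SE 0.19, edgeR adjusted p = 0.220) and the repressor Per1 at 0.23 (SE 0.12, edgeR adjusted p = 0.510), and did not pass. The time of day at which mice were killed is not given in the labels.

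Stress lists had single calls, and 0.794% of all genes tested were called higher. Bag3, a cochaperone of Hsp70, was the only call among 24 heat shock genes (log2 fold change 0.71, SE 0.14, edgeR adjusted p = 0.0209, list median 0.21), and Hspa1a, at 1881, 1002, 954, 517 and 604 CPM in saline against 173, 780 and 1113 CPM in water, did not pass (0.63, SE 0.41, edgeR adjusted p = 0.606). Reads of Hspa1a and its near-identical copy Hspa1b cannot be told apart with certainty. Sesn2 was the only call among 23 genes of the unfolded protein response (median 0.05). Bcl6, a transcriptional repressor, was the only call among 24 glucocorticoid targets, at 99.8, 114, 115, 148 and 103 CPM in saline against 60.0, 72.9 and 102 CPM in water (log2 fold change 0.64, SE 0.12, edgeR adjusted p = 0.0172). The hormone-responsive cochaperone Fkbp5 was at -0.26 (SE 0.21, edgeR adjusted p = 0.700) and the list median at 0.16. The chemokine list had Cxcl16 higher, a membrane-bound ligand (0.56, SE 0.12, edgeR adjusted p = 0.0427, 1 of 17 genes). The lysosome list had 2 calls of 34 genes, among them the glycosidase Gla (0.78, SE 0.13, edgeR adjusted p = 0.0133), and the splicing list the SR protein Srsf2 (0.43, SE 0.08, edgeR adjusted p = 0.0216) of 25. The fit with the set term called no gene at all, so its lack of calls on these lists says nothing about them in particular.

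**Figure D3:**
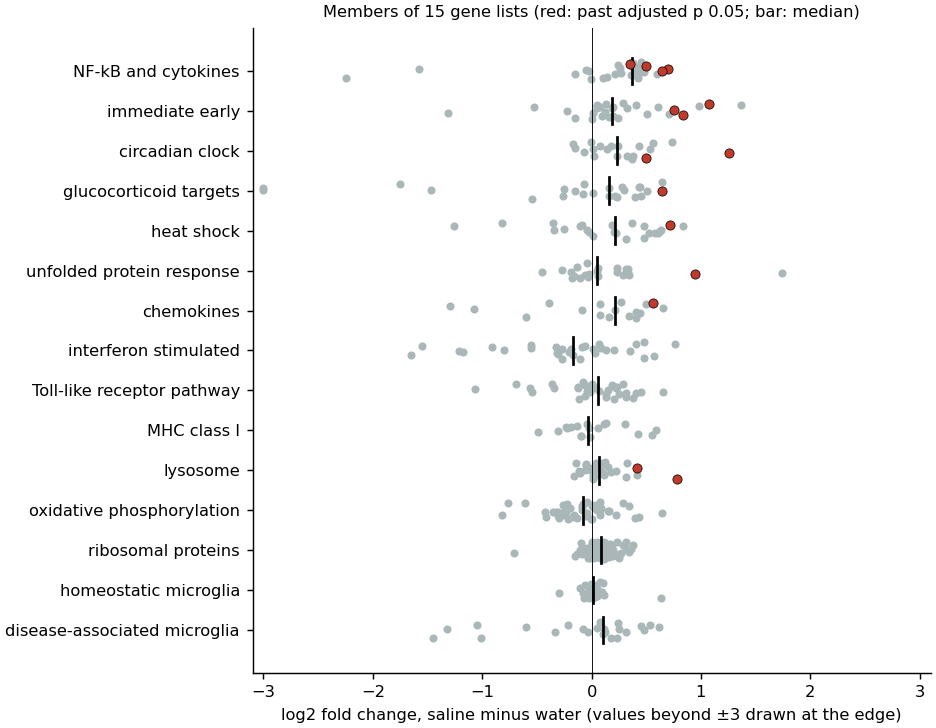
Log2 fold change of saline minus water (x) for each tested member of 15 gene lists (rows). Red points passed an adjusted p of 0.05, grey points did not, and bars mark list medians. Red points lie right of 0 in 8 of the lists shown, and the NF-kB list has the highest median at 0.37.

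No gene on a list of homeostatic microglial genes was called between the groups. Of 28 homeostatic genes 0 passed, 17 were positive, and the median log2 fold change was 0.02. P2ry12, a purinergic receptor that directs microglial processes, had 1932, 2145, 2130, 1957 and 2061 CPM in saline, against 1631, 2291 and 2408 CPM in water, with a log2 fold change of -0.04 (SE 0.09, edgeR adjusted p = 0.904). Tmem119 was at -0.05 (SE 0.10), the fractalkine receptor Cx3cr1 at 0.02 (SE 0.07), Csf1r at 0.05 (SE 0.07), Itgam, the CD11b chain itself, at 0.05 (SE 0.07) and Aif1 at -0.05 (SE 0.13), each with overlapping groups. Gpr84, a fatty acid receptor and the gene with the smallest p on the homeostatic list as drawn up here, was at 0.64 (adjusted p = 0.115). Without water mice 19 and 24, 1 gene of this list was called lower, beside 6 of all 12958 genes tested in that fit. The LPS receptor Tlr4 was at -0.56 (SE 0.18, edgeR adjusted p = 0.190), at 33.4, 84.6, 87.5, 55.2 and 82.1 CPM in saline, against 85.2, 103 and 126 CPM in water. Only saline mouse 46 reached into the water range. Its co-receptor Cd14 was at 0.04 (SE 0.11), Apoe, which carries lipids, at 0.45 (SE 0.14, edgeR adjusted p = 0.176), the lipid receptor Trem2 at 0.11 (SE 0.10) and the growth factor Tgfb1 at 0.21 (SE 0.07, edgeR adjusted p = 0.223). In all, 16 of 842 tested genes on 42 lists were called, beside 110 of all 13218 genes tested (0.832%). Lists without a call numbered 33, among them the interferon, Toll-like receptor, disease-associated, histocompatibility, complement, oxidative phosphorylation and ribosomal protein lists. A list of genes that differ between C57BL/6 substrains had 0 calls of 6, and Nnt, which one substrain lacks in functional form, was at 30.3, 42.3, 33.8, 27.1 and 37.8 CPM in saline, against 35.2, 45.4 and 54.2 CPM in water (-0.38, SE 0.12, edgeR adjusted p = 0.200).

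No marker of another cell type was called, beside 110 of all 13218 genes tested (0.832%). At that share, lists of this size would hold few or no calls, so the absence of calls says little. The list medians were below 0 for most of these cell types, and in bulk RNA fewer cells of a type and less RNA per cell cannot be told apart. For neutrophil markers the median was -3.24 with 1 of 13 positive, and 0.21 without water mice 19 and 24. Monocyte markers had a median of -0.94 with 2 of 13 positive, a summed level of 600 to 826 CPM in saline and 292 to 3268 CPM in water, and a median of 0.28 without those mice. Endothelial markers were at a median of -0.55 with 3 of 19 positive (239 to 390 CPM summed in saline, 218 to 598 CPM in water). Pericyte and smooth muscle markers were at -0.83 with 0 of 11 positive (21.7 to 124 CPM in saline, 28.9 to 181 CPM in water), and oligodendrocyte markers at -0.41 with 3 of 20 positive (1618 to 2047 CPM in saline, 1485 to 2194 CPM in water). Without water mice 19 and 24 these medians were -0.64, -0.83 and -0.51. Summed levels overlapped between saline and water for each of these lists, none of whose markers was at 0 in all 13 libraries. With the neutrophil markers as a covariate 139 genes were called, 106 of the 110 among them. The part of the other cell types in the 110 calls was not tested.

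Further calls were chosen after their values were seen. They include Gadd45b, a stress-inducible partner of MAP kinase kinases, at 313, 320, 320, 320 and 303 CPM in saline, against 107, 173 and 239 CPM in water. The groups did not overlap, and the log2 fold change was 0.91 (SE 0.16, edgeR adjusted p = 0.0133). The surface protein Cd83 had 1664, 1902, 2444, 2295 and 2122 CPM in saline, against 888, 1251 and 1646 CPM in water (0.72, SE 0.13, edgeR adjusted p = 0.0172). Also higher were the NF-kB inhibitor Nfkbib (0.79), the fibronectin receptor chain Itga5 (0.99), the plasminogen activator Plau (0.62) and the small GTPase Gem (0.72). The adjusted p of these 4 genes in edgeR lay between 0.0119 and 0.0216.

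The promoters of 4 of these genes are shown because they share a sequence, the palindromic E-box that basic helix-loop-helix factors such as CLOCK and BMAL1 are known to bind. They come from RefSeq (GRCm38.p6), and each holds the 250 bases before the gene's start, read 5′ to 3′ on the gene's strand, with the E-box CACGTG in capitals. They lie at chr10:85185055-85185304 on the minus strand (Cry1), chr16:23988853-23989102 on the minus strand (Bcl6), chr2:127335909-127336158 on the plus strand (Dusp2) and chr10:80929841-80930090 on the plus strand (Gadd45b).
Cry1: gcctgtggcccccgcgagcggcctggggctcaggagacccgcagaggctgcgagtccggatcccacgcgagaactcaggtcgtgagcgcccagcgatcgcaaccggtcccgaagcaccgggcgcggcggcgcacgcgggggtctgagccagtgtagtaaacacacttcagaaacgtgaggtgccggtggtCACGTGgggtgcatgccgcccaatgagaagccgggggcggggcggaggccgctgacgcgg
Bcl6: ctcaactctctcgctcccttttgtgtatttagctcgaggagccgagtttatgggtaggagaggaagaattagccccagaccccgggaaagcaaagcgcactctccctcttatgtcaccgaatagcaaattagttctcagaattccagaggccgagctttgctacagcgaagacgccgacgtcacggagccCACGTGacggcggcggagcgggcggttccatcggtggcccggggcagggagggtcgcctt
Dusp2: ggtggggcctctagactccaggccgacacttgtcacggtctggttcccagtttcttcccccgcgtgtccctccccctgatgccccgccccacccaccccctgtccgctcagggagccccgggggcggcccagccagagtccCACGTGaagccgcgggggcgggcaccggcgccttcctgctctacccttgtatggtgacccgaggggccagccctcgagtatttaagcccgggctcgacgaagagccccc
Gadd45b: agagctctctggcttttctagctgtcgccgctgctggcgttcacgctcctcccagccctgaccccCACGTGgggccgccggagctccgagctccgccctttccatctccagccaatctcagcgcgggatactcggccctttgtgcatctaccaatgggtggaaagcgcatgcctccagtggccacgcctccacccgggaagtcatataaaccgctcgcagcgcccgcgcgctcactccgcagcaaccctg
The E-box starts at -60 in Cry1 and Bcl6, at -109 in Dusp2 and at -185 in Gadd45b, counted from the base before the gene's start as -1. In windows of 300 bases, which run 50 bases past the start, CACGTG, its own reverse complement, was found in 16 of the 76 promoters matched among the 105 higher genes (21.1%) and in 997 of 9933 promoters of all tested genes (10.04%). The median GC content of the promoters was 64.3% in the 76 and 61.0% in all. The match is a description of letters only. Of 7 motif families searched on both strands, words for the NF-kB site were in 1.32% of the 76 and 1.03% of all. The cyclic AMP element TGACGTCA was in 2.63% and 3.31%, the AP-1 site TGACTCA in 2.63% and 3.32%, the ATF site TGATGCAA in 0% and 0.634%, and a word for the heat shock element in 0% and 0.403%. Words for the serum response element were in 1.32%, or 1 promoter, and 0.111%.

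Most of the higher genes had more RNA in microglia than in whole tissue. In ethanol mice, whose homogenates were sequenced too, 88 of the 105 (83.8%) were higher in microglia than in homogenate, against 48.2% of all tested genes, with a median log2 ratio of 1.62 against -0.08 (pseudocount 0.1 CPM). Their median level in water microglia was 109 CPM, against 19.5 CPM over all tested genes. Dusp2 was at 86.4 CPM in ethanol microglia and 0.757 CPM in homogenate, and Icam1 at 1193 and 4.66 CPM. Not all followed this pattern: Nt5dc3 was at 28.2 CPM in microglia and 119 CPM in homogenate. Their longest transcripts had a median length of 3205 bases with 51.3% GC, against 3453 bases with 49.8% GC over all tested genes. The AU-rich word TATTTAT, found in many short-lived transcripts, was in 35.9% of them and 36.8% of all.

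The same cohorts were compared once more in libraries that the first comparison did not use. LPS and ethanol microglia differ by both treatments as well as by cohort, and 734 of 13619 genes were called (5.39%), 511 higher (3.75%) and 223 lower (1.64%) with LPS. Of the 110 genes called between saline and water, 104 had the same sign between LPS and ethanol (94.5%), beside 58.3% of the 13045 genes tested in both. Both comparisons called 56 genes in the same direction, 54 higher and 2 lower, and none in opposite directions. These are 50.9% of the saline-water calls and 7.63% of the LPS-ethanol calls. The number called in both was 115 without saline mouse 38 and 33, 28, 13 and 27 without saline mice 45, 46, 48 and 49, and LPS-ethanol calls numbered 487 without LPS mouse 50. Dusp2 had 176, 330, 254, 373 and 256 CPM in LPS mice 33, 40, 44, 50 and 51, against 59.7, 87.4 and 105 CPM (lowest, median, highest) in ethanol mice, a log2 fold change of 1.75 (SE 0.13, edgeR adjusted p = 1.01e-08). The groups did not overlap, and LPS mouse 33 was the lowest of its own. Sdc4 was at 1.82 (edgeR adjusted p = 3.12e-07), Gadd45b at 1.19 (edgeR adjusted p = 7.58e-06), Cd83 at 1.02 (edgeR adjusted p = 4.10e-07), Ints6 at 1.11 (edgeR adjusted p = 0.00484), Relb at 0.56 (edgeR adjusted p = 0.0408) and Dusp6 at -0.58 (edgeR adjusted p = 0.0236). Other calls were near 0 between LPS and ethanol, among them Sesn2 at 0.06 (SE 0.19, edgeR adjusted p = 0.925), Nfkb1 at 0.11 (SE 0.07, edgeR adjusted p = 0.474) and Slc39a10 at -0.08 (SE 0.11, edgeR adjusted p = 0.772), and their difference between the comparisons did not pass (adjusted p 0.158, 0.353 and 0.130).

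A fit with an interaction term tested whether each difference was the same in both pairs. It called 7 of 14394 genes (0.0486%), of which 1 was among the 110. Adamts16 had 36.3, 41.0, 36.2, 31.1 and 35.2 CPM in saline and 13.6, 18.98 and 23.3 CPM (lowest, median, highest) in water microglia, a log2 fold change of 1.02 (SE 0.17, edgeR adjusted p = 0.0109). It had 19.3, 37.3, 31.1, 20.99 and 16.8 CPM in LPS and 26.6, 38.1 and 49.5 CPM in ethanol microglia, a log2 fold change of -0.49 (SE 0.19, edgeR adjusted p = 0.149). Saline and water libraries did not overlap, LPS libraries overlapped with both water and ethanol libraries, and the differences themselves differed by 1.51 (edgeR adjusted p = 0.0179).

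**Figure D4:**
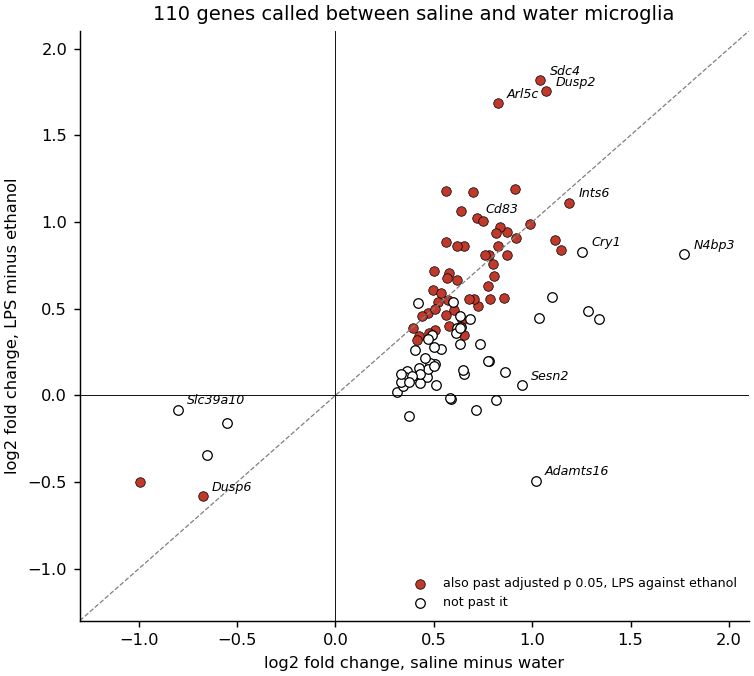
Log2 fold changes of the 110 called genes between saline and water (x) and between LPS and ethanol (y), groups that share no library. Filled points also passed an adjusted p of 0.05 on the y axis, the dashed line marks equal values, and 104 of 110 points have the same sign on both axes, with Adamts16 far below the line.

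Each library was placed on a scale from the water mean (0) to the saline mean (1), by the median over called genes, with called genes and means of a saline or water library taken from the fit without it. Saline mice 45, 46, 48 and 49 lay at 0.86, 0.93, 1.02 and 0.83, and saline mouse 38 at 0.27. Water mice lay between -0.40 and 0.43, with mouse 18 the highest, so saline mouse 38 fell within the range of water mice. In the other pair, LPS mice 40, 44, 50 and 51 lay at 1.06, 0.85, 0.99 and 0.92 and LPS mouse 33 at 0.21, while ethanol mice lay between -0.17 and 0.58. In each injected group 4 of 5 libraries stood near the saline mean and 1 near the water mean. For a saline or water mouse, the other mice of both these groups defined the scale, so its place is a description only. The cause of the split was not tested.

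**Figure D5:**
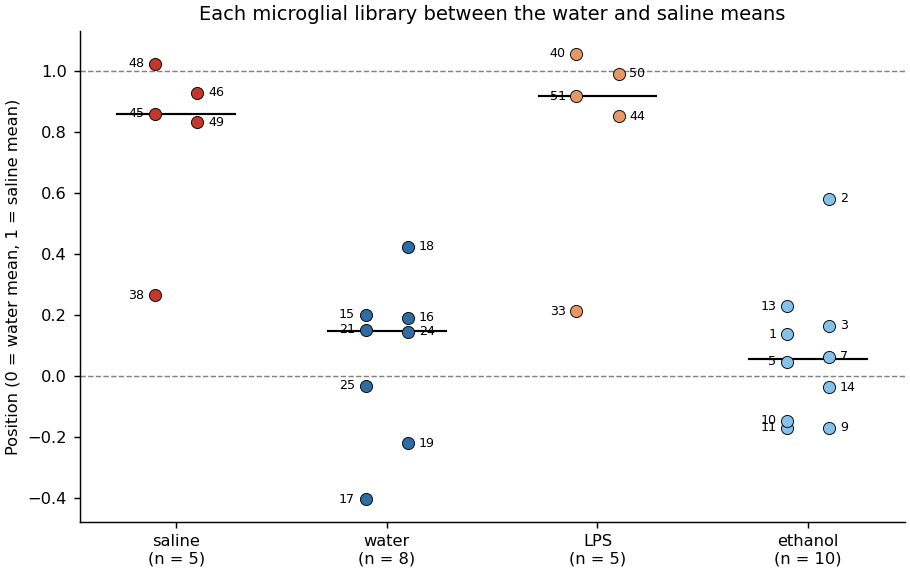
Position of each of 28 microglial libraries (points, with mouse numbers) between the water mean (0) and the saline mean (1), with group medians as bars, for saline, water, LPS and ethanol mice. Saline mouse 38 at 0.27 and LPS mouse 33 at 0.21 lie among water and ethanol mice.

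The labels give no batch. Library names carry numbers up to 16, each used up to 3 times, from which 3 sets of libraries (A, B and C) were inferred. All saline and LPS libraries (numbers 1 to 10) would then share set C with water mouse 15 and ethanol mice 1 and 13, while water mice 16 to 19 fall in set A and 21, 24 and 25 in set B. Water mouse 15 and ethanol mice 1 and 13, all of set C, lay at 0.20, 0.14 and 0.23 on the scale. They were nearer to the water mean than to the saline mean. Against water mouse 15 alone, Dusp2 was at 130 to 207 CPM in saline and 94.3 CPM in that library, Ints6 at 44.1 to 79.0 and 21.3 CPM, and Sesn2 at 39.8 to 68.8 and 26.7 CPM. In edgeR fits of saline against the water libraries of set A, B or C, and in a fit of all 4 groups with the set as a term, 0 genes were called. At an unadjusted p under 0.05 the fits against sets A, B and C gave 987, 686 and 239 genes and the fit with the set term 802. All 110 genes kept their sign in each, and the median log2 fold change of the 105 higher genes was 0.65, 0.56 and 0.59 against sets A, B and C and 0.58 with the set term. Set C has a single water library, assumed to vary like the saline libraries, and the sets themselves are inferred, so cohort and set were separated only in part.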

How the data were processed

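Microglia captured with CD11b beads were sequenced as poly(A) RNA, 1 library per mouse, with a directional kit and paired-end reads, per the labels' protocols. The authors deposited whole-number read counts per gene symbol, with 24062 genes and 5 tally rows per library. The authors used STAR, HTSeq, FastQC, DESeq2 and bcl2fastq 2.15.0.4 on mm10, per the submitters' processing notes. The strand option of HTSeq is not given in the sources used here, so overlapping and antisense genes are uncertain. Tally rows entered neither totals nor tests. Reads outside genes made up 21.1 to 36.9% of uniquely aligned reads in saline and 19.9 to 56.1% in water microglia. Groups follow the labels, and water mouse 26 was not analysed here. No unused columns of samples were present. All pairs of libraries within a group differed beyond sampling noise, with chi-square per degree of freedom of at least 35.1 in saline and 31.9 in water. Nothing in the labels says that mice of a group came from separate litters or days, so p-values measure the spread between these mice.

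Differences were tested with edgeR 4.0.16 (R 4.3.3) (quasi-likelihood F-test after filterByExpr and TMM) with Benjamini-Hochberg adjustment at 0.05 over all genes tested, fitted on the groups compared. All adjusted p-values of genes come from it. The SE is the absolute log2 fold change over the root of F. The interaction used a fit of all 4 groups. Library measures were compared by exact permutation of 1287 splits. Thinning was to 9.72 M counts. Named genes are, among called genes with at least 1 CPM in a group and no predicted name, the 12 largest rises and falls, the 6 smallest p in each direction, up to 3 called members per list, and a fixed set of microglial and stress genes, 52 in all, of which 31 passed. Some of them are not reported here. The lists held 917 symbols, 906 of them in the files. The groups, lists, rule and tests were chosen with earlier results of these data known. The fit was tested on simulated data. The changed genes were drawn from those with a mean count above 100, so recovery at lower counts was not tested. Of 100 genes changed by a log2 of 0.5 the fit recovered 6, and of 100 changed by 1 it recovered 53. It also called 3 unchanged genes. A gene not called can therefore still differ between the groups. Alternatives were RLE and upper quartile scaling, other filters, DESeq2 1.42.0, limma 3.58.1 voom, libraries left out, inferred sets of libraries, and covariates. Positions are from GENCODE M21 (GRCm38) and promoters from RefSeq (GRCm38.p6). No molecular identifiers are named. The SE and p-values of edgeR rest on the spread between libraries as well as on counting error.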

Additional observations from a re-analysis of the deposited data

Results flagged for a closer look

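In 116 tests for a library far from its group, 9 results stood apart, and chance flags about 1 in 20 such groups. Among named genes in saline microglia, Gla was highest in mouse 48 at 124 CPM (next 94.1 CPM), Il1b was lowest in mouse 38 at 66.0 CPM (next 116 CPM) and Apoe was highest in mouse 45 at 1839 CPM (next 1187 CPM). In water microglia, Dusp5 was highest in mouse 19 at 40.6 CPM (next 29.6 CPM), Il1b in mouse 19 at 229 CPM (next 97.2 CPM) and Fos in mouse 25 at 5284 CPM (next 3445 CPM). Water mouse 24 had 56.1% of its reads outside genes (next 27.1%), 23.1% of its reads not uniquely aligned (next 11.1%) and 26.9% of its counts in the top 20 genes (next 11.4%). The difference of Adamts16 between saline and water exceeded that between LPS and ethanol by 1.51 on the log2 scale (edgeR adjusted p = 0.0179).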

How the results depend on the processing

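The count of 110 genes called between saline and water was 326 with DESeq2, 169 with voom, 181 with all 4 groups in the fit, 56 with the share of reads outside genes as a covariate and 0 in each fit with inferred sets (the set with mouse 15, called C, either of the sets A and B, or the set as a term). It was 31 to 229 when 1 library was left out. Added after seeing the data, leaving out saline mice 38 and 48 gave 121, and leaving out water mice 19 and 24 too gave 267. With RLE scaling, upper quartile scaling, no filter, the stricter filter and the neutrophil covariate it was 97, 75, 89, 111 and 139. The count of LPS-ethanol calls, 734, was 1137 with DESeq2 and 487 to 903 without 1 library. The 56 genes called in both were 127 with DESeq2, 142 without the 4 libraries named and 13 to 115 without 1 library. All 110 kept their sign in every fit of saline against water. Directions reversed only for genes that were not called or library measures whose difference did not pass. Fos was at -0.0077 with RLE scaling, -0.011 with upper quartile scaling, -0.012 without a filter, -0.000093 with the stricter filter, -0.0077 with DESeq2, -0.0075 with 4 groups, -0.014 without water mice 19 and 24, -0.13 without saline mice 38 and 48, -0.14 without all 4, -0.24 against set B, -0.013 with reads outside genes and -0.011 with the neutrophil covariate. Cx3cr1 was at -0.013 without water mice 19 and 24, -0.045 and -0.019 against the sets B and C, -0.049 with the set term and -0.021 with the neutrophil covariate. Csf1r was at -0.00080 without water mice 19 and 24. P2ry12, Tmem119 and Aif1 were at 0.048, 0.020 and 0.042 against set A, Tmem119 at 0.062 and Fkbp5 at 0.49 against set C, Trem2 at -0.012 against set B, and Fkbp5 at 0.16 with the set term. Without 1 library, Fos lay between -0.14 and 0.13, Cx3cr1 between -0.022 and 0.034, Aif1 between -0.22 and 0.017, and Cd14 between -0.024 and 0.11. Even counts differed by 2.94 points by means and by -0.17 by medians (exact permutation p = 0.997 for medians, not adjusted). The share of the top 20 genes differed by -0.24 points by means and by 1.32 by medians (exact permutation p = 0.0777 for medians, not adjusted). The cause of these changes was not tested. No paired analysis was possible because saline and water mice share no mouse numbers. At these depths low-count genes such as N4bp3 and Utp14b are the least precise.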
